A study of Homo sapiens with 29 samples.

Results

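The collagen and laminin genes were described in HCT116 cells, a human colorectal carcinoma line, as 56 of the 38148 genes in the RNA-seq table. They are the genes whose symbol is COL, a number, A and a number (44 genes), or LAMA, LAMB or LAMC and a digit (12 genes). Of these, 32 reached a log2 RPM (a gene's reads per 1000000 reads of the library, on the log2 scale) of at least -2 in at least 4 libraries and were tested, 22 collagen and 10 laminin genes, among 17973 tested genes in all. The same symbols name 219 of the 49916 regions in a ChIP-seq table made with an antibody against crotonyllysine (Kcr), a short-chain acylation of lysine residues such as those in histones. Cells received either 35 nM siRNA against DAXX, a histone chaperone that deposits H3.3 together with ATRX, or 25 nM non-targeting siRNA, so target and dose of the siRNA cannot be told apart. Each siRNA was used without and with 10 mM crotonate, which the series text gives as 18 h and the sample protocol as 48 h, with 4 RNA libraries in each of the 4 groups. The ChIP libraries number 4 for each siRNA alone and 2 for each siRNA with crotonate, beside 1 input library, labelled as coming from DAXX siRNA cells. All groups are transfected cultures of 1 cell line, and no untransfected group is in the data used here. The labels do not state whether libraries of a group came from separate cultures, so p-values measure the spread between these libraries, which may be technical.

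Collagens are matrix proteins of chains wound into a triple helix; some form fibrils, while type IV collagen forms the sheet-like network of basement membranes. Laminins are cross-shaped trimers of an alpha, a beta and a gamma chain (LAMA, LAMB and LAMC genes) that make the other network of basement membranes and bind integrins on epithelial cells. In the colon, laminins underlie the epithelium.

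Promoter sequences are shown for 4 members on which the results below turn: COL4A5, whose start faces that of COL4A6 and which was higher with crotonate together with it, COL5A3, with the largest crotonate change among the members, and LAMB3 and LAMC1, which were higher with DAXX siRNA in crotonate. Each is the stretch of 250 bases before the RefSeq start, 5′ to 3′ on the strand of the gene, from RefSeq on GRCh38.p14; other coordinates are those of the deposited tables, on GRCh38 per the submitters' processing notes. Capitals mark a GC box (GGGCGG) or a CCAAT box (CCAAT) on either strand. The COL4A5 stretch is chrX:108439588-108439837, plus strand, that of COL5A3 chr19:10010505-10010754, minus strand, that of LAMB3 chr1:209652426-209652675, minus strand and that of LAMC1 chr1:183023170-183023419, plus strand.
COL4A5: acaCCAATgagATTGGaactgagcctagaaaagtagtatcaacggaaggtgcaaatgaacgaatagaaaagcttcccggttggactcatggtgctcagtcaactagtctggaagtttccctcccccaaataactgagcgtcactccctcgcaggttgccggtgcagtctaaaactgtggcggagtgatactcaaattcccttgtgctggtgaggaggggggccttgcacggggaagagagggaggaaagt
COL5A3: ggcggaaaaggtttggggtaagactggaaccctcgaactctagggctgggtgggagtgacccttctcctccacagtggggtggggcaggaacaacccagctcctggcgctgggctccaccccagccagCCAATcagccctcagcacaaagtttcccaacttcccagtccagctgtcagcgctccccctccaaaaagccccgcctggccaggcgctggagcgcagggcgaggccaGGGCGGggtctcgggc
LAMB3: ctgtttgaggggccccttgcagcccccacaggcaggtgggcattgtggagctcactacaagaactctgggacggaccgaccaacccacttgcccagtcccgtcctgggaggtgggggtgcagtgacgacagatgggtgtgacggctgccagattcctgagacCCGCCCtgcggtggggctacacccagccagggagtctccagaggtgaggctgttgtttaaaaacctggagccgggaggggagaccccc
LAMC1: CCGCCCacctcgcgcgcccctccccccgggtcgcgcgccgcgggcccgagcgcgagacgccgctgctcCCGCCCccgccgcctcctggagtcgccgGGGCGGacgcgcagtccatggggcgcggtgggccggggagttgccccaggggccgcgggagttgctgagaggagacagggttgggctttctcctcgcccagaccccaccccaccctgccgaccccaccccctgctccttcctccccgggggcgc

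Both motifs and 2 others were counted in the same window of 39 members with a RefSeq start within 2 kb of the start in the RNA table (41 of 56 members were in the RefSeq table). GGGCGG, the GC box bound by SP1-family factors, stood on either strand in 22 of 39 (56.4%) and in 42.3% of 27305 promoters of the same length. CCAAT was in 10 (25.6%, against 33% of all), TATAAA in 5 (12.8%, against 11.1%) and TGANTCA, the AP-1 motif, in 1 (2.6%, against 6.6%); none of these motifs contains another. The members' windows held a median of 16 CG dinucleotides, against 11 in all promoters. The COL4A5 stretch shown has CCAAT on both strands a few bases apart and no GC box, while that of LAMC1 has 3 GC boxes and no CCAAT. Members with no window in the RefSeq table include COL1A1, COL1A2, COL2A1, COL3A1, COL5A2, COL6A1, COL6A5, COL8A1, COL9A3, COL14A1, COL20A1, COL22A1, LAMA1 and LAMC3.

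RNA depth, as reads summed over the genes, ranged from 35003617 to 55128007 per library. ChIP depth ranged from 2226835 to 3639130 reads in the regions, with 1719036 in the input. DAXX itself was at 103 ± 1.6 RPM (mean ± SD, n = 4) with non-targeting siRNA and 24.6 ± 2.06 RPM with DAXX siRNA, and at 100.3 ± 3.38 and 19.3 ± 4.67 RPM with crotonate. All 7 markers of colon epithelium and HCT116 cells (EPCAM, keratins, CDH1 and others) were tested, with a summed level of 4003 to 5204 RPM. Of 8 markers of fibroblasts and mesenchymal cells, 2 were tested, and LUM, DCN and POSTN had 0 reads in every library. The summed level of these 8 markers, most of it from ACTA2, was 3.35 to 4.03 RPM with non-targeting siRNA and 4.88 to 5.14 RPM with crotonate added, and 3.15 to 3.69 and 3.59 to 5.24 RPM with DAXX siRNA. Of 5 endothelial markers 2 were tested and of 5 leukocyte markers 1, with summed levels of at most 1.73 and 0.529 RPM. The endothelial sum was 0.537 to 1.08 RPM with non-targeting siRNA and 0.961 to 1.73 RPM with crotonate added, and 0.305 to 0.859 and 0.761 to 1.44 RPM with DAXX siRNA. Mitochondrially encoded mRNAs took 2.22 to 3.46% of reads.

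The 24 untested members comprised 22 collagen genes and the laminin genes LAMA1 and LAMB4. They include the chains of type I, II and III collagen other than COL1A1 (COL1A2, COL2A1 and COL3A1), the cartilage chain COL10A1, the type VIII chains COL8A1 and COL8A2, and COL4A2, the usual partner chain of COL4A1. No read of COL6A5, COL19A1 or COL22A1 was counted in any library, as for 10458 genes of the whole table, and 14 untested members had at most 10 reads over all 16 libraries. The highest count of an untested member in any library was 26 reads, of COL15A1. The latter, a basement membrane zone collagen, lay just outside the rule with 3 libraries at the minimum and 118 reads in all. Its 4 non-targeting libraries had 3, 2, 0 and 1 reads, and those with crotonate added 15, 26, 11 and 9 reads. With DAXX siRNA it had 0, 7, 3 and 0 reads without and 20, 5, 11 and 5 with crotonate, so its counts with crotonate lay above the others apart from the 7 reads of 1 library. COL4A1 lay just inside the rule with 4 libraries, while 28 of the 32 tested members were at or above the minimum in all 16.

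With non-targeting siRNA, crotonate raised 13 of the 32 tested members (40.6%) and lowered 1, COL13A1. Over all tested genes, 13.1% were called higher and 2.34% lower (limma, Benjamini-Hochberg adjusted p under 0.05 over 17973 genes). With DAXX siRNA, crotonate also raised 13 members and lowered COL13A1, against 13% of all tested genes called higher and 2.41% lower. The pair of crotonate comparisons shares no libraries, and 10 members were called higher in both, among them the laminin chains LAMA3, LAMB1, LAMC1 and LAMC3, the type IV collagen chains COL4A4, COL4A5 and COL4A6, and COL5A3 and COL6A2. COL13A1 was called lower in both, so 11 of the 14 calls in each comparison were shared (78.6% of each list, against 66.5% of each list for all genes). COL6A3, COL9A3 and LAMA2 were called with non-targeting siRNA alone, and COL1A1, LAMA4 and LAMB2 with DAXX siRNA alone, but no interaction was called for any of them. Without library 2 of the non-targeting group lacking crotonate, COL1A1 and LAMB2 were called higher with non-targeting siRNA too (limma adjusted p = 0.0246 and 0.0223). LAMB2 was also called there with the replicate number as a block (limma adjusted p = 0.0465). The median log2 fold change of the members was 0.28 with non-targeting siRNA and 0.40 with DAXX siRNA, against 0.07 and 0.06 for all tested genes, and 28 of 32 were positive in each. Laminins had a median of 0.29 and 0.45 (n = 10 genes) and collagens of 0.17 and 0.32 (n = 22 genes). All 4 crotonate libraries lay above all 4 others for 13 members with non-targeting siRNA, against 16% of all genes, and for 14 with DAXX siRNA, against 14.7%; they lay below for 1 and 0 members, against 4.11% and 3.99%. At an unadjusted p under 0.05 there were 16 members with non-targeting siRNA (28% of all genes) and 21 with DAXX siRNA (27.4%). These are bulk libraries, in which fewer cells that express a gene and less of its RNA per cell cannot be told apart.

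**Figure D1:**
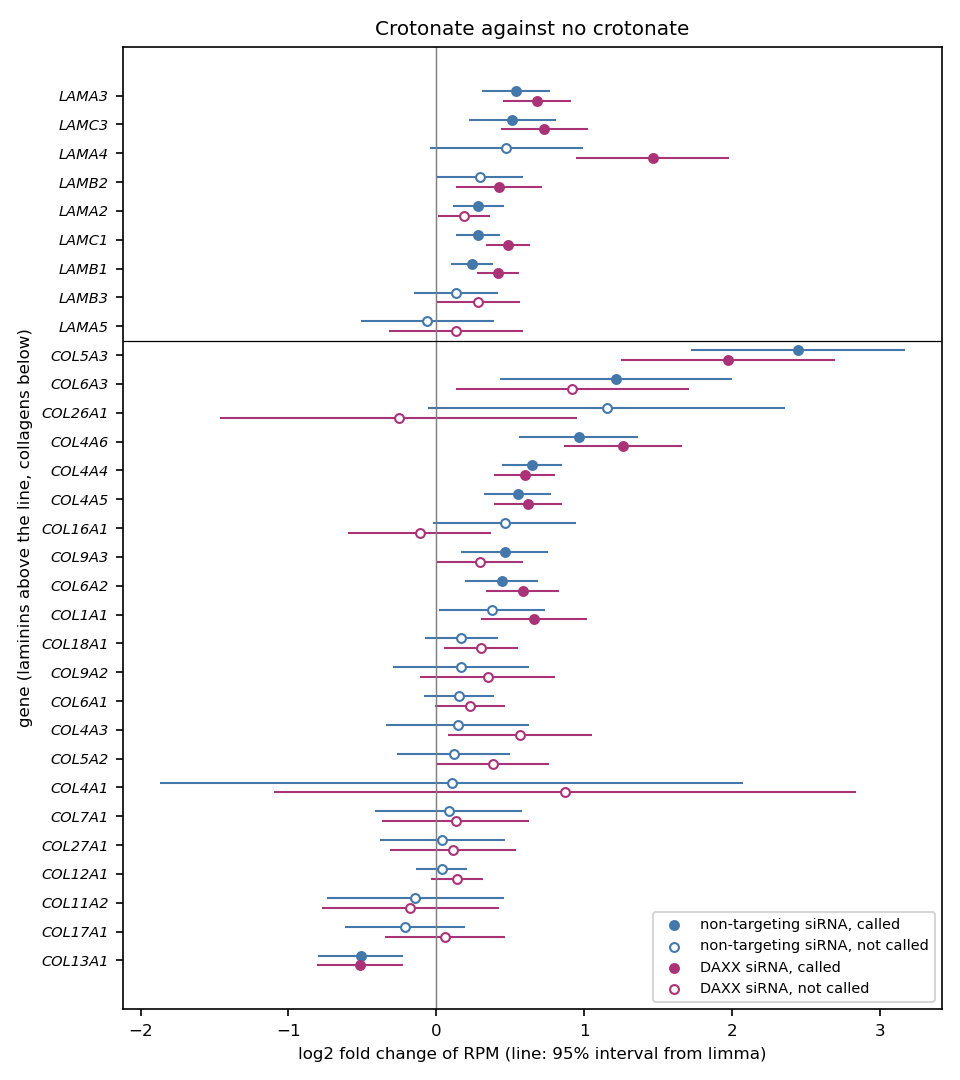
Log2 fold change of RPM with crotonate (x axis) for 31 of the 32 tested laminin and collagen genes (y axis), with non-targeting siRNA in blue and DAXX siRNA in purple. Points are estimates, lines 95% intervals from limma, and filled points were called; 12 members are filled to the right of 0 in each arm and COL13A1 to the left in both.

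LAMA3 and LAMB3 encode an alpha and a beta chain of laminin that anchors epithelia; LAMA3 was called with crotonate and LAMB3 was not, and whether they differ was not tested. LAMA3 (ENSG00000053747, chr18:23689443-23956222, plus strand) was at 5.92, 6.37, 6.6 and 6.99 RPM with non-targeting siRNA and 8.79, 9.31, 8.73 and 10.8 RPM with crotonate added. In cells with DAXX siRNA its values were 6.01, 5.92, 5.08 and 6.22 RPM without and 9.62, 10.1, 7.88 and 9.71 RPM with crotonate. Every crotonate library was above every library without it, whichever siRNA was used (log2 fold changes 0.54 and 0.68, adjusted p = 0.00201 and 0.000225). LAMB3 (ENSG00000196878, chr1:209614870-209652425, minus strand) was at 89, 107, 72.9 and 67.3 RPM with non-targeting siRNA and 95.8, 96.9, 87.5 and 83.6 RPM after crotonate was added, ranges that overlap. DAXX siRNA gave 106, 107, 104 and 125 RPM without and 162, 119, 107 and 157 RPM with crotonate, and these overlap as well. LAMB3 was not called in either crotonate comparison, with log2 fold changes of 0.14 (95% interval -0.15 to 0.42) and 0.28 (0.00 to 0.57).

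**Figure D2:**
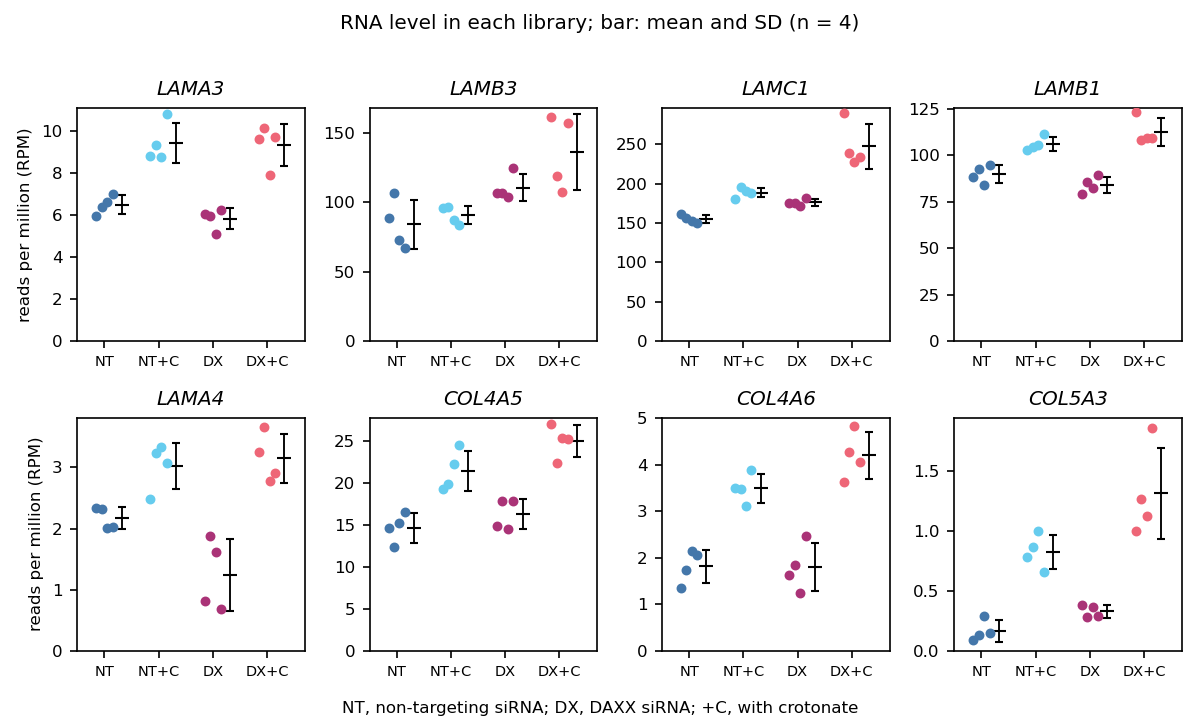
RPM (y axis, from 0) of 8 members in each of the 16 RNA libraries (points), with the mean and SD of each group (n = 4) as a bar; NT is non-targeting siRNA, DX DAXX siRNA and +C crotonate. LAMC1 is highest with both treatments, LAMA4 is lowest with DAXX siRNA alone, and LAMB1, COL4A5, COL4A6 and COL5A3 are higher with crotonate under either siRNA.

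LAMC1, LAMB1 and LAMB2 encode the gamma and beta chains that most laminin trimers share. LAMC1 (ENSG00000135862, chr1:183023420-183145592, plus strand) had 162, 156, 153 and 150.4 RPM in the non-targeting libraries and 181, 195, 191 and 187 RPM in those with crotonate. The DAXX siRNA libraries had 176, 176, 172 and 182 RPM, and 289.6, 239, 227 and 233 RPM with crotonate. None of the LAMC1 groups set against each other overlapped, and library 1 with both treatments stood above its group. The log2 fold change with crotonate was 0.28 (adjusted p = 0.00971) with non-targeting and 0.48 (adjusted p = 9.3e-05) with DAXX siRNA. LAMB1 (chr7:107923799-108003187, minus strand) was at 88.4, 92.6, 84 and 94.5 RPM without and 103, 104, 106 and 111 RPM with crotonate under non-targeting siRNA. Under DAXX siRNA the values were 79.2, 85.6, 82.4 and 89.1 RPM without and 124, 108, 109 and 109 RPM with crotonate. LAMB1 rose without overlap in both arms (log2 fold changes 0.24 and 0.42, adjusted p = 0.0191 and 0.000225); its span in the table overlaps that of DLD, and the strand counted is not given in the sources used here. LAMB2, a beta chain of muscle and kidney basement membranes, was at 42.8, 65.2, 40.4 and 53.8 RPM without and 54.4, 63.8, 56.4 and 70.5 RPM with crotonate in the non-targeting arm. In the DAXX siRNA arm LAMB2 was at 40.5, 48.4, 42.6 and 56.2 RPM without and 66.2, 58.5, 54.5 and 72.1 RPM with crotonate. Both pairs of LAMB2 groups overlap, and it was called with DAXX siRNA (0.42, adjusted p = 0.0435) but not with non-targeting siRNA (0.30, adjusted p = 0.167).

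Other laminin chains were LAMC3, LAMA4, LAMA2 and LAMA5. LAMC3, a gamma chain, was at 14.2, 18.5, 11.8 and 12.3 RPM with non-targeting siRNA and 18.2, 23.3, 17.5 and 21.2 RPM with crotonate. Under DAXX siRNA LAMC3 was at 11.5, 12.6, 11.4 and 12.3 RPM without and 21, 18.4, 16.2 and 24.8 RPM with crotonate. It rose in both (0.51 and 0.73, adjusted p = 0.0166 and 0.00116), with 1 non-targeting library inside the range of the crotonate libraries. LAMA4, the alpha chain known from vessels and muscle, was at 2.33, 2.32, 2.00 and 2.03 RPM with non-targeting siRNA and 2.49, 3.23, 3.33 and 3.07 RPM with crotonate. DAXX siRNA libraries had 0.812, 1.87, 1.62 and 0.677 RPM of LAMA4, and 3.26, 3.67, 2.77 and 2.91 RPM with crotonate. Libraries with DAXX siRNA alone were the lowest, 2 of them under 1 RPM, while the libraries of both siRNAs with crotonate overlapped. The crotonate change of LAMA4 was called with DAXX siRNA (1.46, SE 0.25, adjusted p = 0.000347) and not with non-targeting siRNA (0.47, adjusted p = 0.224). LAMA2 was called with non-targeting siRNA (0.28, from 12.3 ± 0.619 to 15 ± 1.15 RPM, n = 4, adjusted p = 0.0247) and gave 0.19 (adjusted p = 0.148) with DAXX siRNA. LAMA5, an alpha chain of mature epithelial basement membranes, had 117 to 261 RPM over all libraries and was called in no comparison; its span in the table overlaps that of ADRM1, as that of COL16A1 does AC114488.2, with the same limit as for LAMB1.

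Type IV collagen chains are encoded in head-to-head pairs, and the members of a pair were not all called together. COL4A5 and COL4A6 start 347 bases apart on opposite strands of chromosome X, by the starts in the RNA table. COL4A5 (ENSG00000188153) was at 14.6, 12.3, 15.2 and 16.6 RPM with non-targeting siRNA and 19.2, 19.8, 22.2 and 24.5 RPM with crotonate. With DAXX siRNA its levels were 14.9, 17.9, 14.6 and 17.8 RPM, and 27, 22.3, 25.4 and 25.2 RPM with crotonate. The crotonate libraries of COL4A5 lay above the others in both arms. COL4A6 (ENSG00000197565) had 1.34, 1.73, 2.14 and 2.05 RPM without and 3.5, 3.49, 3.11 and 3.88 RPM with crotonate in the non-targeting arm. In the DAXX siRNA arm COL4A6 was at 1.62, 1.85, 1.25 and 2.47 RPM without and 3.63, 4.29, 4.84 and 4.06 RPM with crotonate, and neither pair overlapped. The log2 fold changes were 0.55 and 0.62 for COL4A5 (adjusted p = 0.00148 and 0.000484) and 0.96 and 1.26 for COL4A6 (adjusted p = 0.00154 and 0.000121). COL4A3 and COL4A4, the chains that join COL4A5 in the network of the kidney filter, start 112 bases apart on chromosome 2. COL4A4 (ENSG00000081052) was at 8.7, 9.44, 8.8 and 9.21 RPM with non-targeting siRNA and 13.6, 13.6, 14.2 and 15.4 RPM with crotonate. The DAXX siRNA values of COL4A4 were 7.41, 6.63, 7.89 and 8.93 RPM without and 12.8, 11.1, 11.2 and 11.3 RPM with crotonate. It rose in both arms without overlap (0.65 and 0.60, adjusted p = 0.000109 and 0.000249). COL4A3 gave 0.14 (95% interval -0.34 to 0.63) and 0.57 (0.08 to 1.05) and was not called, at 1.58 to 4.10 RPM. Its groups overlapped with non-targeting siRNA, while with DAXX siRNA every crotonate library lay above the others. In the DAXX siRNA arm COL4A3 was called when the 2 groups alone were fitted (limma adjusted p = 0.0449). Whether COL4A3 differs from COL4A4 was not tested. COL4A1 had at most 0.366 RPM and COL4A2 did not reach the minimum, so the pair that makes up most type IV collagen in tissues was near the limit of detection.

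Among the other collagens, COL5A3, a chain of type V collagen that forms fibrils with type I, had the largest change. It was at 0.0876, 0.135, 0.294 and 0.147 RPM with non-targeting siRNA and 0.785, 0.863, 0.998 and 0.661 RPM with crotonate. With DAXX siRNA COL5A3 was at 0.381, 0.278, 0.369 and 0.286 RPM and, with crotonate, 0.997, 1.27, 1.13 and 1.86 RPM. Each pair was separated without overlap, although the level stayed low, with as few as 3 reads in a non-targeting library. Its log2 fold change was 2.44 (95% interval 1.72 to 3.17, adjusted p = 5.8e-05) and 1.97 (1.25 to 2.70, adjusted p = 0.000498). Over 16 alternatives the call held in both arms, but the estimate ranged from 0.998 to 2.77 and from 1.11 to 2.09. COL6A2, 1 of the chains of the beaded type VI filaments, was at 96.9, 122, 93.7 and 91.9 RPM with non-targeting siRNA and 129.5, 148, 129 and 139.7 RPM with crotonate. DAXX siRNA libraries had 78.8, 99.5, 81.7 and 109.6 RPM of COL6A2, and 128, 138, 118 and 169 RPM with crotonate. COL6A2 rose in both arms (0.44 and 0.58, adjusted p = 0.0143 and 0.00184) with no overlap. Its partner chain COL6A1 was not called (0.15 and 0.23), and COL6A3 was called with non-targeting siRNA at a low level (from 0.404 ± 0.158 to 0.871 ± 0.122 RPM, n = 4, 1.22, adjusted p = 0.0329), with 0.92 (adjusted p = 0.112) with DAXX siRNA. COL1A1, a chain of fibrillar type I collagen, was at 16.1, 21.1, 11.1 and 14.1 RPM with non-targeting siRNA and 17, 21.4, 18.3 and 22.7 RPM with crotonate. In the DAXX siRNA arm COL1A1 had 12.4, 14.1, 11.9 and 19 RPM, and 21.4, 22.6, 18.8 and 26.9 RPM with crotonate. These groups overlap, and COL1A1 was called with DAXX siRNA (0.66, adjusted p = 0.012) and not with non-targeting siRNA (0.38, adjusted p = 0.158); its partner COL1A2 had 8 reads in all libraries together.

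COL9A3, a chain of type IX collagen on the surface of cartilage fibrils, was at 32, 42.2, 32.4 and 30.2 RPM with non-targeting siRNA and 41.5, 47.7, 44 and 54.8 RPM with crotonate. With DAXX siRNA COL9A3 had 22.9, 31, 25.3 and 33.5 RPM, and 28.1, 33.4, 33.5 and 43.5 RPM with crotonate. Both pairs overlap, and the change was called with non-targeting siRNA (0.46, adjusted p = 0.0293) and not with DAXX siRNA (0.29, adjusted p = 0.179). COL13A1, a collagen that spans the plasma membrane, was the only tested member called lower. Its libraries had 18.9, 18.5, 21.4 and 19.4 RPM with non-targeting siRNA and 11.8, 14.7, 13 and 15.6 RPM with crotonate, below all of the former. In cells with DAXX siRNA COL13A1 was at 12.7, 15.3, 16.5 and 17.1 RPM and, with crotonate, 8.18, 11, 10.2 and 14.2 RPM, where 1 crotonate library overlapped the others. COL13A1 fell in both arms (-0.51 and -0.52, adjusted p = 0.0149 and 0.0143), and the interaction was -0.004 (95% interval -0.41 to 0.41). The 14 members called in none of the 4 comparisons were COL4A1, COL4A3, COL5A2, COL6A1, COL7A1, COL9A2, COL11A2, COL12A1, COL16A1, COL17A1, COL18A1, COL26A1, COL27A1 and LAMA5. They include COL7A1, which forms the anchoring fibrils of the epithelial basement membrane, and COL17A1, the hemidesmosome collagen, at 2.67 to 6.45 and 1.19 to 2.25 RPM over all libraries. COL12A1 (126 to 180 RPM), COL18A1 (107 to 193 RPM) and COL6A1 (89.9 to 148 RPM) were among the more abundant of them. The 95% interval of the crotonate change with non-targeting and with DAXX siRNA was -0.14 to 0.21 and -0.03 to 0.31 for COL12A1, and -0.08 to 0.39 and -0.01 to 0.47 for COL6A1. For COL18A1 it was -0.08 to 0.42 and 0.05 to 0.55 (adjusted p = 0.387 and 0.0988), and without library 4 of DAXX siRNA alone it was called higher in the latter comparison (adjusted p = 0.0401).

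**Figure D3:**
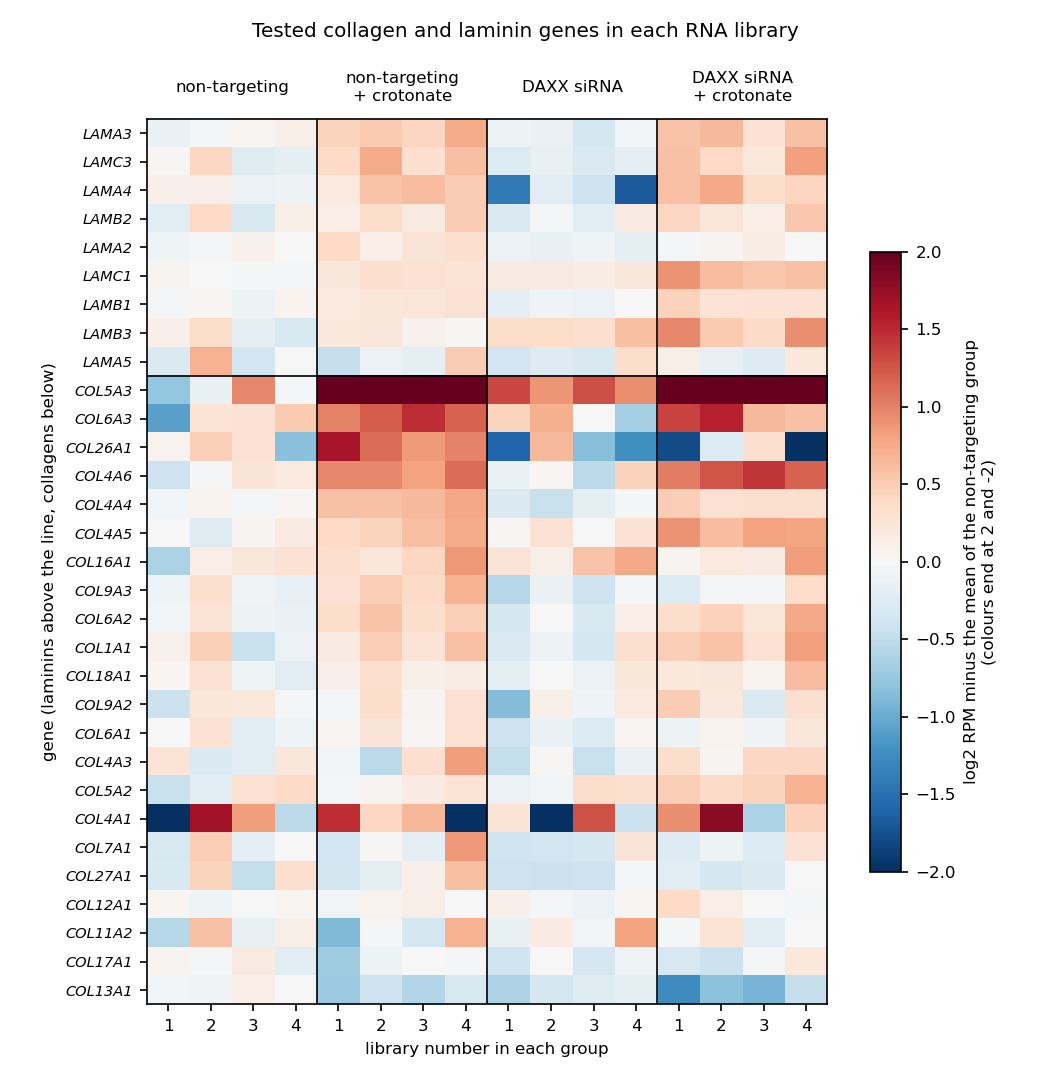
Log2 RPM of 31 of the 32 tested members (rows) in each of the 16 RNA libraries (columns, grouped by treatment), minus the mean of the non-targeting group; red is higher, blue lower, and colours end at 2 and -2. The crotonate columns are red for most laminins, COL4A4, COL4A5, COL4A6 and COL5A3, and blue for COL13A1, while COL4A1, a gene of few reads, varies between single libraries.

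The call of several members depended on scaling or on 1 library. Crotonate shifted the median of all tested genes by 0.07 with non-targeting siRNA, and centring each library on its median gene moved that median to -0.055 and the members' median to 0.154; with DAXX siRNA these became -0.055 and 0.285. With that centring, 1458 genes were called higher and 1701 lower with non-targeting siRNA, in place of 2352 and 420, and with DAXX siRNA 1515 and 1488 in place of 2338 and 433. With quantile scaling the counts were 1424 higher and 1010 lower with non-targeting siRNA and 1448 and 852 with DAXX siRNA. With the centring, 6 of the 13 members called higher with non-targeting siRNA remained (COL4A4, COL4A5, COL4A6, COL5A3 and LAMA3 among them), and the calls of COL6A2, COL6A3, COL9A3, LAMA2, LAMB1, LAMC1 and LAMC3 were lost, with limma adjusted p from 0.0512 (COL6A3) to 0.276 (LAMB1). With DAXX siRNA, 12 of 13 remained, and LAMB2 was lost (adjusted p = 0.115). Without library 4 of non-targeting cells with crotonate, 8 members were called higher, and COL9A3, LAMA2, LAMB1, LAMC3 and COL6A3 were lost (adjusted p = 0.111, 0.0752, 0.0689, 0.0529 and 0.0682). In the same group (adjusted p in parentheses), leaving out library 1 ended the calls of LAMA2 (0.0896), COL6A3 (0.051) and COL13A1 (0.0613), library 2 those of COL6A2 (0.0509), COL6A3 (0.0686), COL9A3 (0.0669) and LAMC3 (0.0661), and library 3 that of COL6A3 (0.0913). Among non-targeting libraries without crotonate, leaving out library 1 ended the calls of COL6A3 (0.124), COL9A3 (0.0794) and LAMA2 (0.0736), library 3 those of COL9A3 (0.0648), LAMB1 (0.0614) and LAMC3 (0.0581), and library 4 those of COL9A3 (0.0769) and LAMC3 (0.0505). With DAXX siRNA, COL13A1 was lost without library 1 of the crotonate group (0.0586), COL1A1 without library 3 of the group without crotonate (0.0506), and LAMB2 without library 1, 2 or 3 of the latter (0.141, 0.0693 and 0.126) or library 1, 2 or 4 of the former (0.105, 0.0634 and 0.118). ACTA2, a fibroblast and muscle marker, was also called higher with crotonate in both arms (0.47 and 0.46). PDGFRB, the other fibroblast marker tested, gave 0.53 and 0.23 and was not called. PECAM1, an endothelial marker of few reads, was called higher with non-targeting siRNA (2.14, adjusted p = 0.0464) and gave 2.01 (adjusted p = 0.0637) with DAXX siRNA. VWF, the other endothelial marker tested, gave 0.50 and 0.96 and was not called. The 7 epithelial markers had a median of -0.13 with non-targeting siRNA and -0.04 with DAXX siRNA. Of these, 1 was called higher in each arm and 1 lower with DAXX siRNA. The leukocyte marker tested gave -0.94 and -0.49 and was not called. The part of such markers in the members' changes was not tested.

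DAXX siRNA changed few members, with 3.1% of them called higher without crotonate and 9.4% with it. Without crotonate it raised 1 of 32, a count that fell to 0 without any 1 of 7 of the 8 libraries compared and in 12 of 17 alternatives in all, and lowered none, against 0.1% of all tested genes called higher and 0.306% lower (0.406% either way). At an unadjusted p under 0.05 there were 7 members (21.9%) without and 9 (28.1%) with crotonate, against 12.2% and 10.9% of all genes. With crotonate it raised 3, LAMC1 and LAMB3 among them, and lowered none, against 0.389% and 0.668% of all genes (1.06% either way). The members' median log2 fold change was -0.14 without and 0.05 with crotonate, against -0.01 and -0.01 for all genes. The libraries of the siRNA groups did not overlap for 2 members above and 3 below without crotonate (2.69% and 3.46% of all genes), and for 4 above and 2 below with it (3.55% and 4.94%). LAMC1 was called with crotonate, from 189 ± 6.06 to 247 ± 28.6 RPM (n = 4 per group; 0.39, SE 0.071, adjusted p = 0.00752), and gave 0.18 (adjusted p = 0.313) without it, where its groups did not overlap either. LAMB3 went from 91 ± 6.47 to 136 ± 27.2 RPM with crotonate (0.56, adjusted p = 0.0492) and gave 0.41 (adjusted p = 0.224) without it. The LAMB3 call lies close to the threshold. LAMB3 was lost without any 1 of library 1, 2 or 4 of cells with DAXX siRNA and crotonate (adjusted p = 0.157, 0.0623 and 0.135) or of the 4 non-targeting libraries with crotonate (0.101, 0.0916, 0.15 and 0.177). The LAMB3 call was also lost by limma without the trend and with no filter beyond 1 read, and held in 8 of 17 alternatives. LAMC1 with crotonate was called in all 17 alternatives run.

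**Figure D4:**
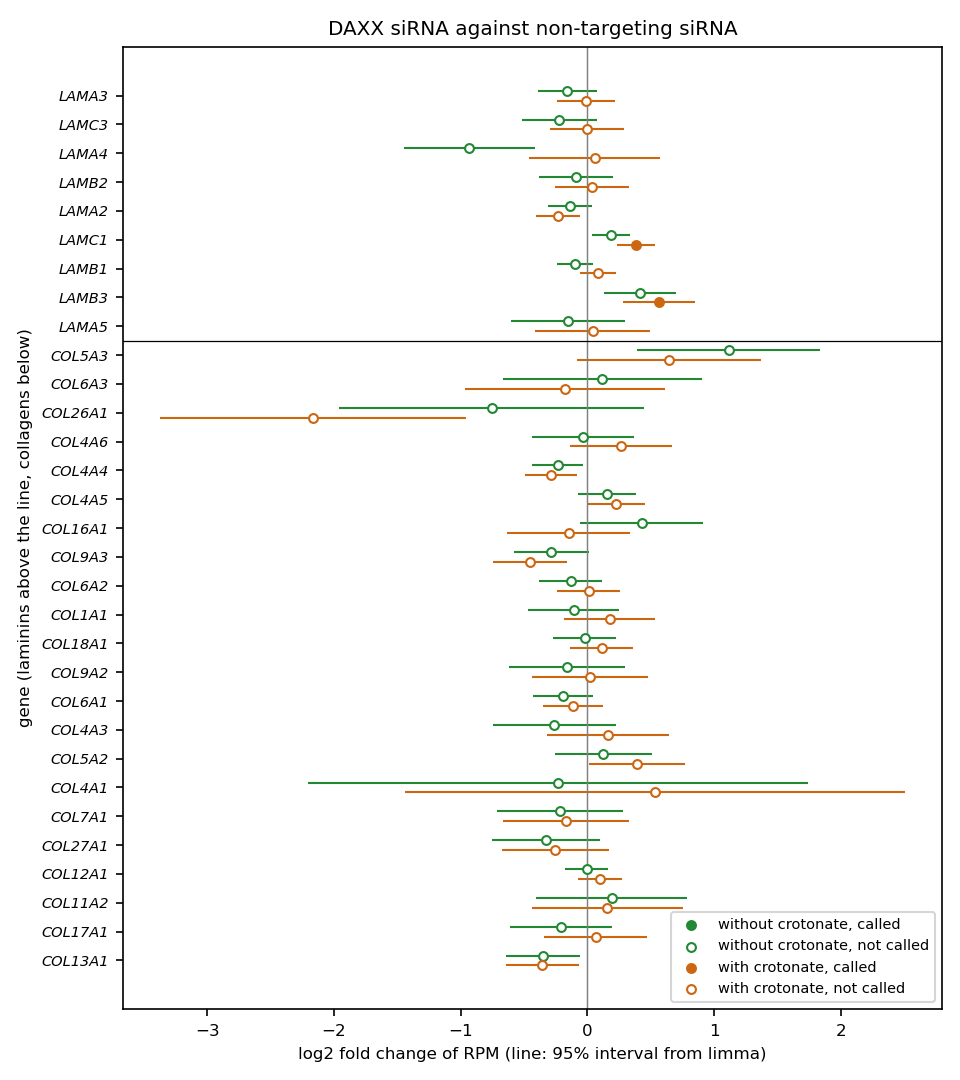
Log2 fold change of RPM with DAXX siRNA against non-targeting siRNA (x axis) for 31 of the 32 tested members (y axis, in the order of the plot of crotonate changes), without crotonate in green and with it in orange. Lines are 95% intervals from limma and filled points were called: LAMC1 and LAMB3 with crotonate.

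Members not called with DAXX siRNA but with an unadjusted p under 0.05 in at least 1 of the comparisons include LAMA4, COL26A1, COL9A3, COL5A3, COL4A4 and COL13A1. LAMA4 was at 2.17 ± 0.18 RPM with non-targeting and 1.24 ± 0.589 RPM with DAXX siRNA (-0.93, adjusted p = 0.131), without overlap, while without library 2 of the DAXX siRNA group it was called (adjusted p = 0.0318); with crotonate the difference was 0.06 (adjusted p = 0.973). COL26A1, a little studied collagen, was at 0.697 ± 0.183 RPM with non-targeting siRNA and crotonate and 0.197 ± 0.15 RPM with DAXX siRNA and crotonate (-2.17, adjusted p = 0.0827), without overlap, and was called lower by limma-voom (adjusted p = 0.0365). COL9A3 gave -0.28 without (adjusted p = 0.428) and -0.45 with crotonate (adjusted p = 0.158; 0.0423 with the replicate block). COL5A3 gave 1.11 (adjusted p = 0.2) and 0.64 (adjusted p = 0.534). COL4A4 and COL13A1 gave negative values in both comparisons (-0.24 and -0.29, and -0.35 and -0.36, adjusted p from 0.211 to 0.341). The interaction, the DAXX siRNA difference with crotonate minus that without, was called for 0 of the 32 members and 0 of 17973 genes by limma; 2.41% of all genes had an unadjusted p under 0.05, as did 1 member, LAMA4, and limma-voom called 0 as well. For LAMA4 the interaction was 0.99 (95% interval 0.26 to 1.72, adjusted p = 0.995). It was 0.20 for LAMC1 (-0.01 to 0.41) and 0.15 for LAMB3 (-0.25 to 0.55), each adjusted p = 0.995. No difference between the crotonate changes of the siRNA arms was therefore detected for these genes.

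Genes that act on collagens and laminins were counted in 5 lists, against the same backgrounds of 13.1% higher and 2.34% lower with non-targeting siRNA and 13% and 2.41% with DAXX siRNA. Of 30 tested genes (32 listed) for collagen modification and secretion, crotonate raised 10 and lowered 1 with non-targeting siRNA, and raised 11 and lowered 1 with DAXX siRNA (median log2 fold changes 0.23 and 0.28). ADAMTS2, which removes the amino propeptide of procollagen, rose by 1.5 and 1.56 (adjusted p = 7.71e-07 and 5.59e-07). P3H2, a prolyl 3-hydroxylase that acts on type IV collagen, rose from 1.16 ± 0.285 to 4.22 ± 0.767 RPM (1.89, adjusted p = 4.68e-06), and PXDN, the peroxidase that crosslinks type IV collagen, rose by 0.77 and 0.83. The gene lowered was SERPINH1, the collagen chaperone of the endoplasmic reticulum, from 224 ± 21.6 to 154 ± 4.56 RPM with non-targeting siRNA (-0.54, adjusted p = 7.81e-05) and from 214 ± 12.9 to 146 ± 13.2 RPM with DAXX siRNA (-0.55, adjusted p = 5.85e-05). Of 15 tested receptors (16 listed), 5 rose with non-targeting siRNA and 6 with DAXX siRNA, and none fell (medians 0.27 and 0.19). ITGA1, an integrin chain that binds type IV collagen, rose from 1.00 ± 0.231 to 2.24 ± 0.479 RPM (1.16, adjusted p = 0.000354) and by 1.44 with DAXX siRNA. ITGA2, another collagen receptor chain, rose by 0.64 and 0.68, and ITGA3, a laminin receptor chain, by 0.43 and 0.59. Of 9 tested genes for other basement membrane proteins (18 listed), 4 rose with non-targeting siRNA and 3 with DAXX siRNA (medians 0.26 and 0.21), among them NPNT, an integrin ligand (0.77 and 0.72), and NTN4, a netrin that binds laminin (1.00 and 1.08).

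Of 14 tested matrix metalloproteinases and inhibitors (22 listed), 4 rose and none fell in each arm (medians 0.47 and 0.49). TIMP2, a secreted inhibitor of these proteases, rose from 152 ± 9.48 to 235 ± 8.73 RPM with non-targeting siRNA (0.63, adjusted p = 2e-06) and by 0.54 with DAXX siRNA, TIMP1 by 0.40 and 0.39, and the protease MMP17 by 0.60 and 0.79. Of 9 tested fibrillar matrix partners (17 listed), 2 rose in each arm (medians 0.24 and 0.38): fibronectin, FN1, from 12.5 ± 0.303 to 31.1 ± 1.16 RPM (1.31, adjusted p = 1.69e-08) and, with DAXX siRNA, from 12.6 ± 1.2 to 32 ± 2.56 RPM (1.35), and CCN2, a matricellular protein (0.74 and 0.75). Of the 77 tested genes of the 5 lists, DAXX siRNA changed 1, SPARC, a matricellular protein that binds collagen, against 0.406% of all genes without and 1.06% with crotonate. SPARC fell from 8.23 ± 0.839 to 4.35 ± 0.584 RPM without crotonate (-0.93, adjusted p = 0.000996) and from 11.8 ± 1.62 to 3.69 ± 0.292 RPM with it (-1.67, adjusted p = 1.6e-07). Its direction was thus the reverse of LAMC1 and LAMB3 in the same cells.

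The 219 Kcr regions named for a member belonged to 37 genes, 11 of them untested in RNA, and 20 regions lay within 2 kb of the start of their own gene. They were 300 to 31200 bases wide (median 2250, against 1800 for all regions), and their median log2 signal over the input was 0.92, against 0.97 for all regions. A region of any name lay within 2 kb of the start of 23 of the 32 tested members (71.9%, against 68.5% of all tested genes) and of 7 of the 24 untested members (29.2%, against 22%). Members with none there include LAMA2, LAMA3, LAMB1, COL4A5, COL4A6, COL5A2, COL5A3 and COL12A1, a group that holds members with some of the largest RNA changes. Regions that cover the start of COL1A1, COL6A2, COL7A1 and COL9A3 carry the name of another gene (AC015909.3, AP001471.1, PFKFB4 and OGFR). None of the 219 member regions, and none of all 49916 (0%), was called in any of the 5 Kcr comparisons by limma. At an unadjusted p under 0.05 there were 16 member regions (7.31%) for crotonate with non-targeting siRNA, against 13.3% of all regions, and 16 (7.31%) with DAXX siRNA, against 8.5%. For DAXX siRNA there were 4 (1.83%, against 2.38%) without and 7 (3.2%, against 4.17%) with crotonate, and 9 (4.11%, against 3.09%) for the interaction; limma-voom called 0 member regions in each. The LAMA2 region described at the end was called lower with crotonate and non-targeting siRNA when libraries 1A and 1B were kept apart (adjusted p = 0.0415), when the 2 groups alone were fitted (0.0284) and with the preparation number as a block (0.0102). The median log2 change of member regions with crotonate was -0.15 and -0.11 with non-targeting and DAXX siRNA, against -0.19 and -0.16 for all regions. With the preparation number as a block they were -0.10 and -0.06, against -0.15 and -0.11 for all regions. After centring each library on its median region the medians became 0.03 and 0.02, against -0.02 and -0.02, so no direction is drawn from them.

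**Figure D5:**
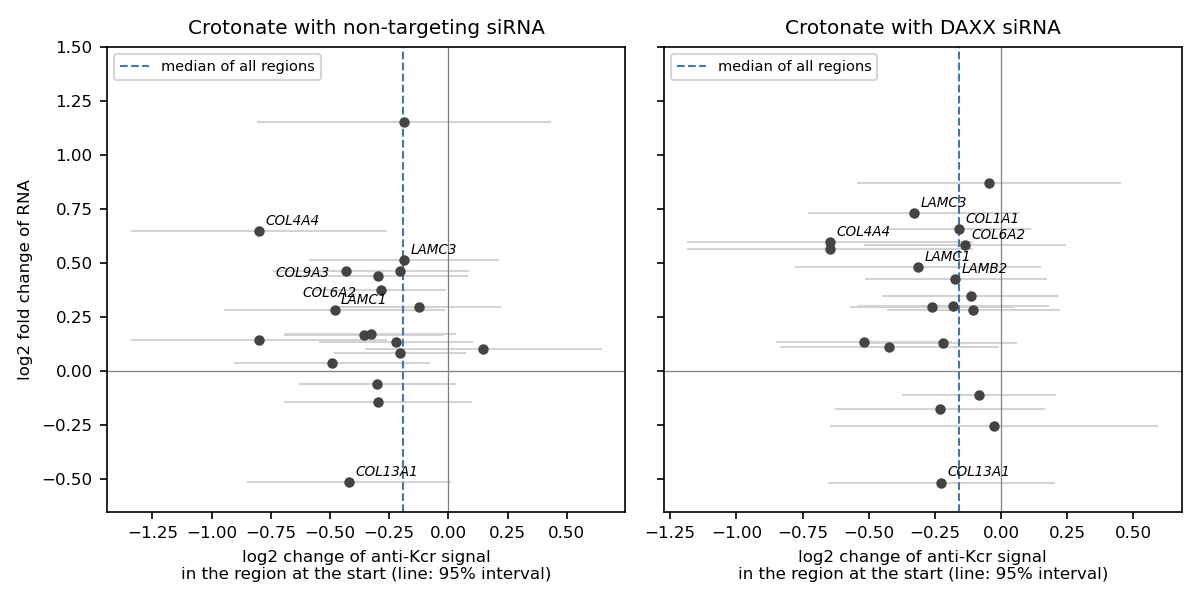
Log2 fold change of RNA with crotonate (y axis) against the log2 change of anti-Kcr signal (x axis, line for its 95% interval) in the region over the start, for the 19 tested members that have one, with non-targeting siRNA at left and DAXX siRNA at right. Names mark members called in RNA, the dashed line is the median of all regions, and no region was called; the position of the points along the x axis depends on how libraries are scaled.

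Signal over member starts was 1.56 to 2.59 times the input with non-targeting siRNA, over the 18 regions that cover the start of 19 tested members. Here the values are reads multiplied by 1 factor per library, the first libraries of each siRNA (1A and 1B) were averaged to 1 sample, and the input is the one from DAXX siRNA cells. The region over the shared start of COL4A3 and COL4A4 (chr2:227163601-227165400) had 49.1, 38.1 and 58.5 scaled reads with non-targeting siRNA and 25.6 and 29.5 with crotonate added. There were 44.4, 57.6 and 36.9 with DAXX siRNA and 38.2 and 22.1 with DAXX siRNA and crotonate, with 25.4 in the input. The crotonate samples with non-targeting siRNA were below the others and near the input, while COL4A4 RNA was higher in the same condition. The log2 change was -0.80 (unadjusted p = 0.00492, adjusted p = 0.247 by limma), against a median of -0.19 for all regions. With DAXX siRNA it was -0.65 (limma adjusted p = 0.539), with overlap. The size of such changes depends on how libraries are scaled. At the start of LAMC1 (chr1:183021601-183025350) were 107, 106 and 73.1 scaled reads with non-targeting siRNA and 75.4 and 60.1 with crotonate added. The other samples had 103, 132 and 71.2 with DAXX siRNA and 93.2 and 67.8 with DAXX siRNA and crotonate, against 48.7 in the input. Change with crotonate was -0.48 and -0.31 there (adjusted p = 0.366 and 0.693), with overlap. The LAMB3 start lies in a broad region (chr1:209646001-209659500) with 400.4, 311 and 308 scaled reads with non-targeting siRNA and 311 and 269 with crotonate added. It held 366, 382 and 306 with DAXX siRNA and 359.5 and 294 with DAXX siRNA and crotonate (131 in the input), and all 4 groups overlapped.

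LAMC3 (chr9:131007901-131016000) had 202, 166 and 141 scaled reads with non-targeting siRNA and 167 and 130.4 with crotonate added. It had 193, 143 and 166 with DAXX siRNA and 166 and 106 with DAXX siRNA and crotonate, and 98.4 in the input. With either siRNA, the crotonate samples of LAMC3 overlapped the others. For LAMB2 (chr3:49128001-49137300) the values were 243, 198 and 202 scaled reads with non-targeting siRNA and 210.0 and 183 with crotonate added. They were 226, 249 and 221 with DAXX siRNA and 244 and 173 with DAXX siRNA and crotonate, and 107 in the input. The LAMB2 groups overlapped as well. The LAMA4 region, chr6:112253551-112254900, ends just short of the start in the table and had 32.9, 19.1 and 42.5 scaled reads with non-targeting siRNA and 14.8 and 30.6 with crotonate added. It had 19.8, 23.9 and 30.3 with DAXX siRNA and 24.7 and 26.1 with DAXX siRNA and crotonate, with 14.8 in the input, few reads with wide spread. COL13A1 (chr10:69801151-69804750), the member with lower RNA in crotonate, had 88.5, 64 and 71.8 scaled reads with non-targeting siRNA and 55.2 and 55.6 with crotonate added. With 71.4, 85.7 and 60.6 with DAXX siRNA and 67.4 and 56 with DAXX siRNA and crotonate and 44.5 in the input, its change was -0.42 and -0.23 (adjusted p = 0.387 and 0.757). Its crotonate samples lay below the others with non-targeting siRNA and overlapped them with DAXX siRNA. Of the starts in regions named for other genes, that of COL6A2 (chr21:46095451-46099800) had 110.0, 91.3 and 106 scaled reads with non-targeting siRNA and 78.1 and 88.4 with crotonate added, then 100.4, 126 and 94.9 with DAXX siRNA and 100 and 93.8 with DAXX siRNA and crotonate, and 51.9 in the input. That of COL9A3 (chr20:62813401-62832600) had 726, 613 and 576 scaled reads with non-targeting siRNA and 516 and 429.7 with crotonate added, then 624, 636 and 499 with DAXX siRNA and 540.3 and 439 with DAXX siRNA and crotonate, and 260.4 in the input. The region over COL1A1 (chr17:50163001-50218050) spans 55.1 kb and had 2066, 1760.0 and 1644 scaled reads with non-targeting siRNA and 1656 and 1339 with crotonate added, then 1804, 1864 and 1589 with DAXX siRNA and 1661 and 1475 with DAXX siRNA and crotonate, and 1025 in the input. With non-targeting siRNA the crotonate samples of COL6A2 and COL9A3 lay below the others and those of COL1A1 overlapped them, and with DAXX siRNA all 3 overlapped. None of these differences was called.

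By p, the leading member regions of each Kcr comparison lay mostly away from gene starts. For crotonate with non-targeting siRNA the smallest p belonged to LAMA2 (chr6:129497251-129504150, 614.1 kb from the start, -0.83, adjusted p = 0.198). It had 196, 198 and 126 scaled reads with non-targeting siRNA and 106 and 86.2 with crotonate, without overlap, and 59.3 in the input. The next were the COL4A4 start region given above and LAMC1 (chr1:183057301-183057750, 33.9 kb from the start, -1.47, adjusted p = 0.259). With DAXX siRNA they were COL6A3 (chr2:237333451-237333900, 80.5 kb from the start, -2.22, adjusted p = 0.43), COL23A1 (chr5:178236301-178239600, 350.8 kb from the start, -0.69, adjusted p = 0.515) and LAMA5 (chr20:62360551-62373300, over its start, -0.52, adjusted p = 0.515). For DAXX siRNA without crotonate they were COL18A1 (chr21:45471451-45474300, 66.3 kb from the start, 0.47, adjusted p = 0.9999), COL4A2 (chr13:110485501-110486850, 179.7 kb from the start, 0.55, adjusted p = 0.9999) and LAMC1 (chr1:183056551-183056850, 33.1 kb from the start, -1.19, adjusted p = 0.9999). With crotonate, the LAMC1 region at 33.9 kb gave 1.87 (adjusted p = 0.999), with COL8A2 (chr1:36102751-36103800, 21.4 kb from the start, 1.25, adjusted p = 0.999) and COL5A1 (chr9:134827501-134828400, 185.7 kb from the start, -0.93, adjusted p = 0.999) next. The interaction placed the same LAMC1 region first (2.09, adjusted p = 0.9998), followed by the COL23A1 and COL4A2 regions already named (-0.80 and -1.06). That LAMC1 region had 9.16, 17.7 and 6.65 scaled reads with non-targeting siRNA, 4.04 and 3.40 with crotonate, 8.80, 8.43 and 9.22 with DAXX siRNA and 15.7 and 11.7 with both, and 2.12 in the input, so it rests on very few reads.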

How the data were processed

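RNA-seq and anti-Kcr ChIP-seq values of HCT116 cells were used as deposited. The authors' RNA table gives log2 RPM per gene, with 0 reads entered as 0.9 read. Their ChIP table gives log2 reads per region times 1 factor per library. Both were read from the values themselves, since whole reads came out of all values within 0.01 read, or a proportionally wider limit for large counts. The input is a separate column and was not subtracted. Per the submitters' processing notes, Trim Galore 0.6.2 and 0.6.5, cutadapt 2.3, HISAT2 2.2.1, Bowtie2 and MACS were used with GRCh38; neither the counting strand nor the assay each tool served is stated there.

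Genes with log2 RPM of at least -2 in at least 4 libraries (17973) and all 49916 regions were fitted with limma 3.58.1 (R 4.3.3; trended prior variance, 1 coefficient per group), with Benjamini-Hochberg adjustment over all of them and calls at adjusted p under 0.05. Fold changes are differences of mean log2 RPM, which can differ from the ratio of mean RPM in genes with few reads and depend on the 0.9 read entered where a library has 0. RPM is not divided by gene length, so levels were not compared between genes. ChIP libraries 1A and 1B of an siRNA differed little beyond read sampling (chi-squared per degree of freedom 1.01 and 1.01, other pairs 1.04 to 1.43) and were averaged to 1 sample, giving 3, 3, 2 and 2 samples. The limma step was run on simulated counts with known changes in the non-targeting group with crotonate only. What size of Kcr change these samples can detect was not tested.

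The members, the lists of related genes and the naming rule were chosen with earlier results of these data known. Every called member is named, except 1 that is not reported here and stands in the counts only; those with a mean of at least 1 RPM in the higher group, up to 16 by fold change, are given in every library, and of each list the 2 called genes of smallest adjusted p in each direction and comparison. COL15A1, COL26A1 and the values of other members not called were added after their values were seen. Alternatives were other scalings, filters, tests, a replicate block and leaving out each library.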

Additional observations from a re-analysis of the deposited data

Results flagged for a closer look

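Among the 16 members given in every library, 64 groups of 4 libraries were checked for 1 library far from the other 3, by the gap to its nearest neighbour divided by the range of the group against Dixon's 95% limit. Chance passes this limit in about 1 in 20 groups, and 3 passed. LAMB1 was at 123.5 RPM in library 1 of DAXX siRNA with crotonate, with a gap of 0.917 of the range. COL4A4 was at 12.77 RPM in the same library (0.879), and LAMB3 at 124.8 RPM in library 4 of DAXX siRNA without crotonate (0.856). Each was the highest of its group. The crotonate calls of COL4A4 and LAMB1 with DAXX siRNA held without library 1, and LAMB3 was not called in the comparisons that use library 4.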

How the results depend on the processing

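The direction of every called member was kept in each alternative run (531 gene-level values kept their side of the threshold, 78 lost the call, 0 reversed; DAXX is included). With each library centred on its median gene, 6 members were called higher with crotonate and non-targeting siRNA in place of 13. Quantile scaling, limma-voom, other filters and limma without the trend left that count within 1.5 times, but not every call. Quantile scaling lost COL6A3, COL9A3, LAMA2 and LAMC3. No filter beyond 1 read lost COL6A3 and COL9A3, and limma without the trend lost COL9A3. Each of these settings also lost LAMB2 with DAXX siRNA. No filter beyond 1 read and limma without the trend lost LAMB3 in the comparison of the siRNAs with crotonate. For DAXX siRNA without crotonate, 0 were called higher with centring, limma without the trend, limma-voom, only the 2 groups fitted or quantile scaling, in place of 1. For DAXX siRNA with crotonate, 1 was called lower by limma-voom and by log2(RPM + 0.5), COL26A1, in place of 0. With no filter beyond 1 read, COL15A1 was called higher with crotonate and non-targeting siRNA (2.96, adjusted p = 0.0102). Over all genes, DAXX siRNA without crotonate gave 18 higher and 55 lower, but 10 and 46 without the trend, 7 and 22 with only the 2 groups fitted, and 39 and 78 with the replicate block. Over all regions, 0 were lower with crotonate and non-targeting siRNA, but 97 with 1A and 1B apart, 64 with only the 2 groups fitted and 410 with the preparation block. The cause of these shifts was not tested.

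Leaving out 1 library at a time gave 8 to 15 members higher with crotonate and non-targeting siRNA (8 without library 4 of the crotonate group, 15 without library 2 of the other), 11 to 14 with DAXX siRNA, 0 to 1 with DAXX siRNA alone and 2 to 3 for DAXX siRNA with crotonate. Members called lower ranged from 0 to 1 in each: COL13A1 was lost without library 1 of either crotonate group, COL26A1 was gained without library 3 of DAXX siRNA with crotonate, and LAMA4 without library 2 of DAXX siRNA alone. For Kcr, 0 to 3 member regions were lower with crotonate and DAXX siRNA (COL27A1, COL6A3 and LAMA5 without crotonate preparation 2, where the lone sample left is assumed to vary like the other groups), and 1 was lower with crotonate and non-targeting siRNA, that of LAMA2, with 1A and 1B apart, with only the 2 groups fitted or with the preparation as a replicate block.

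With the RNA replicate number as a replicate block, 14 members were called higher and 1 lower in the crotonate comparison with non-targeting siRNA, 13 and 1 in that with DAXX siRNA, 1 and 0 for DAXX siRNA without crotonate and 3 and 2 with it (COL26A1 and COL9A3 lower), and 0 for the interaction. The main fit did not take the numbers to pair the libraries, and correlations of deviations from group means do not settle whether they do. For RNA, 5 of 24 same-numbered pairs were over 0.1 (median 0.065), against 7 of 72 (median -0.024) for other numbers. For ChIP preparations, same-numbered pairs gave -0.001 to 0.095 (median 0.047), and other numbers -0.095 to 0.057 (median -0.024). COL5A3, COL6A3, COL26A1 and COL4A1 have few reads, and the ChIP groups with crotonate have 2 samples each; what either does to the calls was not tested.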
